A study of Mus musculus with 6 samples.

Results

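The genes described here are 27 genes of cholesterol synthesis and of its control by the transcription factor SREBP2, followed along the pathway in mouse bone marrow macrophages. Each gene was represented by the Affymetrix Mouse Genome 430 2.0 probe set with the highest mean over the 6 arrays, among probe sets annotated with that symbol alone. Of the 27 genes, 25 had such a probe set, out of 18193 genes in all, and Acat2 (a thiolase that makes acetoacetyl-CoA) and Soat1 (which esterifies cholesterol for storage) were not analysed here. All 25 lay above the filter on dim probe sets described below, as did 10363 genes in all.

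The cells were macrophages of C57BL/6 background that lacked TNF receptors 1 and 2 (TNFR1-/-R2-/-) and had been infected with retrovirus for a chimeric receptor, followed by selection in puromycin at 2 ug/ml for 3 days. The wild-type receptor (n = 3 arrays) joined the outer part of mouse TNFR1 to the membrane and inner parts of mouse RANK, the receptor that drives macrophages towards bone-resorbing osteoclasts. In the mutant group (n = 3 arrays) the IVVY motif of the RANK part was inactivated by mutation, and the series asks which genes that motif regulates. All cultures were kept for 24 hours with M-CSF (44 ng/ml) plus TNF (10 ng/ml), which binds the TNFR1 part of the chimera. RNA of 6 dishes was pooled for an array, RNA was prepared in 3 independent assays, and the arrays of each group carry the numbers 1 to 3. The labels do not say that arrays of the same number share an assay, which was inferred from how their values vary together. Assay 1, 2 or 3 here means the arrays of that number. The chimera was expressed from a retrovirus and engaged by TNF, so the groups do not compare RANK signalling through its own ligand. Whether the assays drew on separate mice is not given.

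Cholesterol is built from acetyl-CoA through mevalonate, which is turned into isoprenoid units, joined to squalene, closed to a first sterol ring and trimmed to cholesterol. SREBP2 is held in the endoplasmic reticulum by SCAP and the INSIG proteins while sterol is plentiful. When sterol is scarce it travels to the Golgi, is cut by the site-1 and site-2 proteases and enters the nucleus to turn on nearly every enzyme of the pathway. Macrophages also take up cholesterol from lipoproteins and dead cells, so their own synthesis is known to vary with supply.

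Promoter sequence was looked at because SREBP2 is known to act at a sterol regulatory element together with NF-Y, which binds the CCAAT box, and Sp1, which binds the GC box. The RefSeq promoter table (build GRCm38.p6) held 29 promoters of 23 of the 27 genes, each of 300 bases, 250 of them before the start. It held none for Fdps, Fdft1, Sqle and Stard4, and the 23 include Acat2 and Soat1, whose expression was not analysed. The motifs searched, on both strands, were the core of the sterol regulatory element (TCACNCCAC), the CCAAT box (the letters of its name) and the GC box, spelled GGGCGG. The CCAAT box was found for 19 of the 23 genes, the GC box for 20 and both for 17, where 41.1%, 38.2% and 15.8% of all 27025 genes in the table had them. A gene counted for both even where the boxes lay in different promoters of it, as in Insig2. Within a single promoter both were found in 16 of the 29, against 12.8% of all promoters. The exact letters of the sterol element core were found for 1 of the 23, Hmgcs1, and for 1.44% of all genes. Elements that depart from these letters were not searched for, so a promoter without a match may still hold one. The table also holds genes that encode no protein, the window leaves out more distant elements, and a match of letters is not a site of binding.

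The 4 promoters shown are those of Hmgcs1, the gene with a match to the element core, of Idi1 and Cyp51, which were among the most different genes in pair 2, and of Mvd, the gene that was lower in every pair. Each is written 5′ to 3′ on the strand of its gene, with the matches in capitals. The matches printed did not overlap each other. They lie at chr13:119690101-119690400 (+ strand), chr13:8885356-8885655 (+), chr5:4104648-4104947 (-) and chr8:122443373-122443672 (-), in that order.
Hmgcs1: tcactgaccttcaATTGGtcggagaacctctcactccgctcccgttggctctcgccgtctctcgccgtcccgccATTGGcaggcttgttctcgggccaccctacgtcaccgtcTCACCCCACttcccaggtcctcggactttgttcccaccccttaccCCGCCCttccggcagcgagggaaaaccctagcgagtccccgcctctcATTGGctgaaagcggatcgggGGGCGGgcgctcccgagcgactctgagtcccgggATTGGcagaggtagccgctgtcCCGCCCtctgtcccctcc
Idi1: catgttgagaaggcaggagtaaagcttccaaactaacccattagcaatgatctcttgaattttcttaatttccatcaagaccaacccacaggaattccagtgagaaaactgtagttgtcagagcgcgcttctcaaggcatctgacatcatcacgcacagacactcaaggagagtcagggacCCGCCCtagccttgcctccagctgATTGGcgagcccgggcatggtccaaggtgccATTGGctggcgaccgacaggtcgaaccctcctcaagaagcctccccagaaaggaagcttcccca
Cyp51: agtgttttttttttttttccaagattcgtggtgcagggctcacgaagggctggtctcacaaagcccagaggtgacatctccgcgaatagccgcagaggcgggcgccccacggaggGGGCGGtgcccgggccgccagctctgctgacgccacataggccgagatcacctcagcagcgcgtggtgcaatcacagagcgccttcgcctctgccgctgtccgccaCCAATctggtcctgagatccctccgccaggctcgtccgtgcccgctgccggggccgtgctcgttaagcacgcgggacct
Mvd: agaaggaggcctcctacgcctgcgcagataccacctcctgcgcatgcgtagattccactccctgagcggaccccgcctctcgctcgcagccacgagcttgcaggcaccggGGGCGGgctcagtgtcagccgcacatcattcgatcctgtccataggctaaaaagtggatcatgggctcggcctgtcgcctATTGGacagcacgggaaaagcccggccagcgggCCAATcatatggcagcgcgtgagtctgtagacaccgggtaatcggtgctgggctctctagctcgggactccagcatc
In Hmgcs1 the element core begins 137 bases before the start, between CCAAT matches that begin 176 and 45 bases before it. In Idi1 the CCAAT matches begin 45 and 14 bases before the start, and in Cyp51 a single one begins 29 bases before it. Mvd carries CCAAT matches that begin 60 and 27 bases before the start and a GC box that begins 140 bases before it. Mvd thus held matches to both boxes, as Hmgcs1, Idi1 and Cyp51 did.

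Most genes of the pathway had a somewhat higher mean in the mutant cells, with no difference that passed the test. Values are probe set intensities, and differences are mutant minus wild type on the log2(intensity + 16) scale, which understates the change of dim genes. Of the 25 genes, 22 had a higher mutant mean, as did 53.2% of all genes tested. In every same-numbered pair 8 were higher, against 14.5% of all genes, and these were Hmgcs1, Fdft1, Sqle, Msmo1, Nsdhl, Hsd17b7, Sc5d and Stard4. Only Mvd of the 25 was lower in every pair, against 12.0% of all genes. The median log2 difference of the 25 was 0.17, where it was 0.01 over all genes. By enzyme stage, all 11 genes from squalene to cholesterol had a higher mean, with a median of 0.18. Of the 7 mevalonate and isoprenoid genes 6 did, with a median of 0.12, and of the 6 genes of SREBP2 control 4 did, with a median of 0.09. In bulk RNA such as this, fewer cells of a type and less RNA per cell cannot be told apart.

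The limma test without a block, two-sided and adjusted over 22497 probe sets by Benjamini-Hochberg, called 0 of the 25 genes, and it called 0% of probe sets in either direction. The smallest adjusted p was 0.99998, and 0 of the 25 had an unadjusted p under 0.05, against 1.14% of all genes in either direction. A fixed replicate block in limma gave 0 calls as well, with a smallest adjusted p of 0.859 among the 25. There 4 had an unadjusted p under 0.05, Hmgcs1, Sqle and Stard4 higher and Mvd lower, where 2.83% of all genes reached it with a higher and 3.06% with a lower mean. A random replicate block called 0 of the 25 and 0.00445% of probe sets (lower), and 1 of the 25, Sc5d, had such a p with a higher mean, against 2.53% of all genes with such a p and a higher mean. No gene of the 25 separated the groups, where 1.36% of all genes were higher and 1.95% lower without overlap. The median of 0.17 was -0.01 without mutant array 2, -0.02 without wild-type array 3 and 0.36 without mutant array 3, and the count of 22 was 10 and 11 without the first and the second of these. Leaving out both arrays of assay 1, 2 or 3 gave medians of 0.22, 0.08 and 0.22, with 22, 18 and 21 genes higher.

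**Figure D1:**
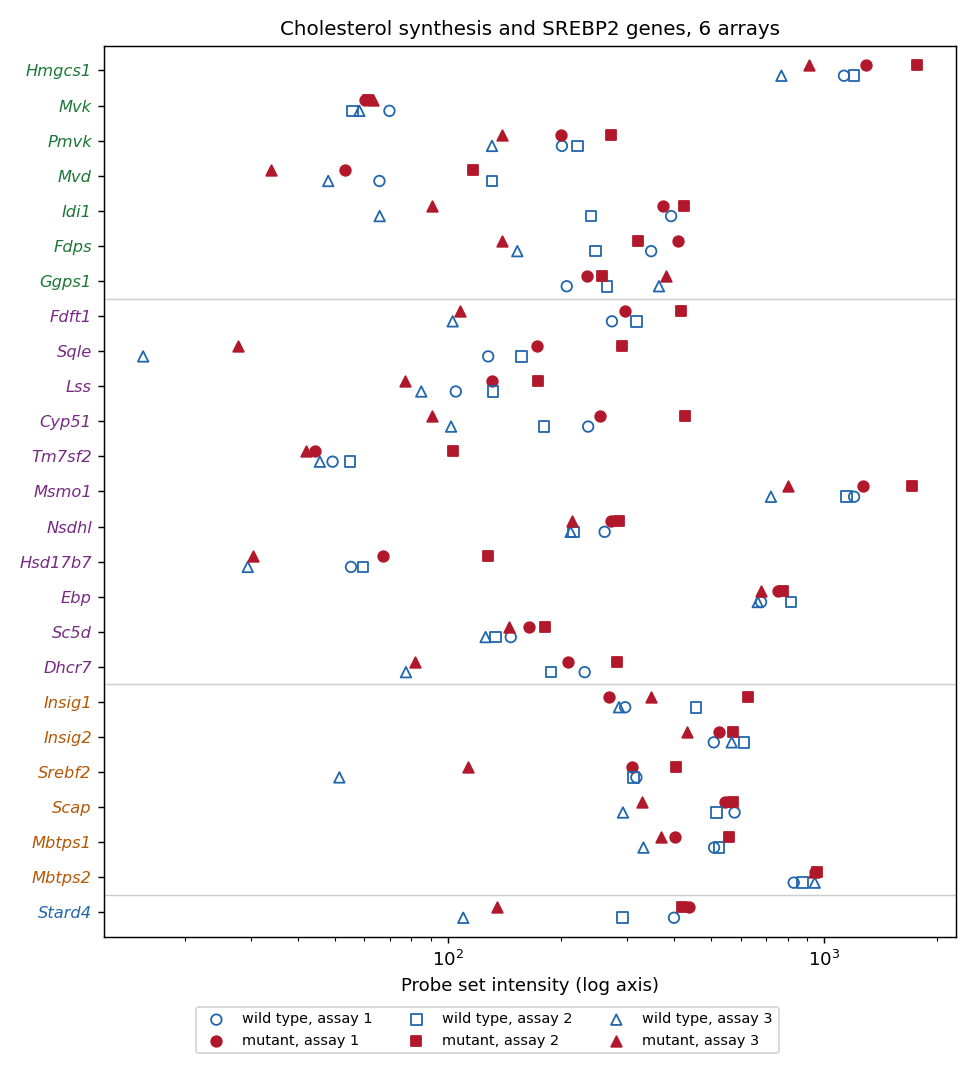
Probe set intensity (log axis) of the 25 genes on each of the 6 arrays, ordered along the pathway, with filled red symbols for mutant and open blue symbols for wild-type arrays and a symbol shape for each assay. Gene names are green for mevalonate and isoprenoid steps, purple for squalene and sterol steps, orange for SREBP2 control and blue for sterol transfer. In Sqle both triangles (27.7 and 15.5) lie far below the other 4 arrays, which read 128 to 291.

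Among the mevalonate genes, Hmgcs1, the synthase that makes HMG-CoA, had the clearest pattern. Mutant arrays 1, 2 and 3 read 1290.2, 1763 and 909, against 1129, 1200.3 and 769.9 on the wild-type arrays of the same numbers. The mutant was higher in each pair, but mutant array 3 lay below wild-type arrays 1 and 2, so the groups overlapped. The log2 difference was 0.32 ± 0.30 (SE), and it was 0.19, 0.55 and 0.24 in pairs 1, 2 and 3. With the fixed replicate block the SE for Hmgcs1 was 0.11 (limma, adjusted p = 0.859). Its next brightest probe sets differed by 0.35 ± 0.31 and 0.32 ± 0.29, also higher in each pair. The dimmer ones differed by -0.05 ± 0.19 and 0.05 ± 0.14. Mvk, the mevalonate kinase, read 60.2, 61.3 and 63.2 in the mutant and 69.96, 55.8 and 58.2 in the wild type, with a difference of 0.01 ± 0.11. Pmvk, the next kinase, read 199.9, 272 and 139 against 201, 221 and 131. Its pair differences of 0.00, 0.28 and 0.08 left pair 1 level and pair 2 the most apart.

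Mvd, the decarboxylase that makes the first isoprenoid unit, ran the other way. It read 53.4, 117 and 33.9 in the mutant and 65.8, 131 and 48.1 in the wild type. Each mutant array was below its wild-type partner, by -0.24, -0.15 and -0.36, while the groups overlapped widely because assay 2 was high in both. The fitted difference was -0.25 ± 0.48 (SE), and its other probe set differed by -0.41 ± 0.32, with pair values of -0.49, -0.47 and -0.26. Both probe sets were therefore lower in every pair. These SEs hold the gap between assays, and with the fixed replicate block that of the first probe set was 0.08 (limma, adjusted p = 0.859).

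Idi1, the isomerase that follows, read 373, 425 and 91.0 in the mutant and 392, 240.0 and 65.9 in the wild type. Pair 1 was nearly level at -0.07, and pairs 2 and 3 differed by 0.79 and 0.39. Its other probe set was higher in every pair, by 0.65, 1.27 and 0.20. Fdps, which makes farnesyl diphosphate, read 409.6, 321 and 139 against 347, 247 and 153, higher in pairs 1 and 2 and lower in pair 3. Ggps1 makes geranylgeranyl diphosphate for the attachment of lipid anchors to proteins, a branch away from sterols. It read 234, 257 and 379 against 207, 265 and 364, and was the 1 gene of the 25 with both arrays of assay 3 above the other 4.

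The steps from squalene to the first sterols held the largest fitted difference of the 25 genes, that of Sqle. Fdft1, the squalene synthase, read 295, 417 and 108 in the mutant and 273, 317 and 103 in the wild type, higher in each pair by 0.11, 0.38 and 0.06. Sqle, the squalene epoxidase and a slow step of the pathway, read 173, 291 and 27.7 against 128, 157 and 15.5. All pairs had a higher mutant value, by 0.39, 0.83 and 0.47, and the fitted difference was 0.57 ± 0.99 (SE), or 1.48-fold. That SE holds the gap between assays, and with the replicate block it was 0.12 (limma, adjusted p = 0.859). Both values of assay 3 lay below every array of assays 1 and 2, so the groups overlapped. Lss, which closes the sterol ring, read 131, 174 and 77.1 against 105, 132 and 85.0, with pair differences of 0.28, 0.36 and -0.12. Its other kept probe set differed by 0.06, 0.80 and 0.41, so the probe sets disagreed in pair 3.

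Cyp51, the demethylase that acts on lanosterol, read 253, 427 and 90.9 in the mutant and 236, 180.1 and 102 in the wild type. The difference was 0.09, 1.17 and -0.14 in pairs 1, 2 and 3, so it lay in pair 2, where the mutant was 2.26-fold higher. Its other kept probe set gave -0.11, 0.77 and -0.05. Tm7sf2, a sterol reductase of the next step, showed the same shape, at 44.3, 103 and 42.0 against 49.4, 54.9 and 45.7. Mutant array 2 stood apart there, and the other 5 arrays read 42.0 to 54.9. Msmo1, which oxidises the methyl groups that are then removed, read 1268, 1710.1 and 800.3 against 1201, 1148 and 722, with pair differences of 0.08, 0.57 and 0.15. Nsdhl, which acts with it, read 271, 285 and 214 against 261, 216 and 212. Its pairs differed by 0.05, 0.38 and 0.01, so 2 of the 3 were close to level.

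Hsd17b7, the reductase of the same demethylation, read 67.4, 128 and 30.3 in the mutant and 55.3, 59.5 and 29.4 in the wild type. Its pair differences were 0.23, 0.93 and 0.03, again with mutant array 2 apart from the rest. These values rest on 1 probe set, as the other probe sets of Hsd17b7 lay below the filter, at 5.19 or less on every array. Ebp, the isomerase that moves the ring double bond, read 752, 777 and 679.9 against 679.8, 817 and 666, with a difference of 0.03 ± 0.12 (SE). Sc5d, a desaturase near the end, had the smallest p of the 25 genes without a block (limma, unadjusted p = 0.0977, adjusted p = 0.99998). It read 164, 181 and 145 against 147, 134 and 126, with a difference of 0.24 ± 0.12. The groups overlapped only between mutant array 3 and wild-type array 1. Its other kept probe set differed by 0.25 ± 0.34 and was level in pair 1. Dhcr7, the reductase of the last step to cholesterol, read 209, 282 and 81.7 against 231, 188 and 77.4, with pair differences of -0.13, 0.54 and 0.06.

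**Figure D2:**
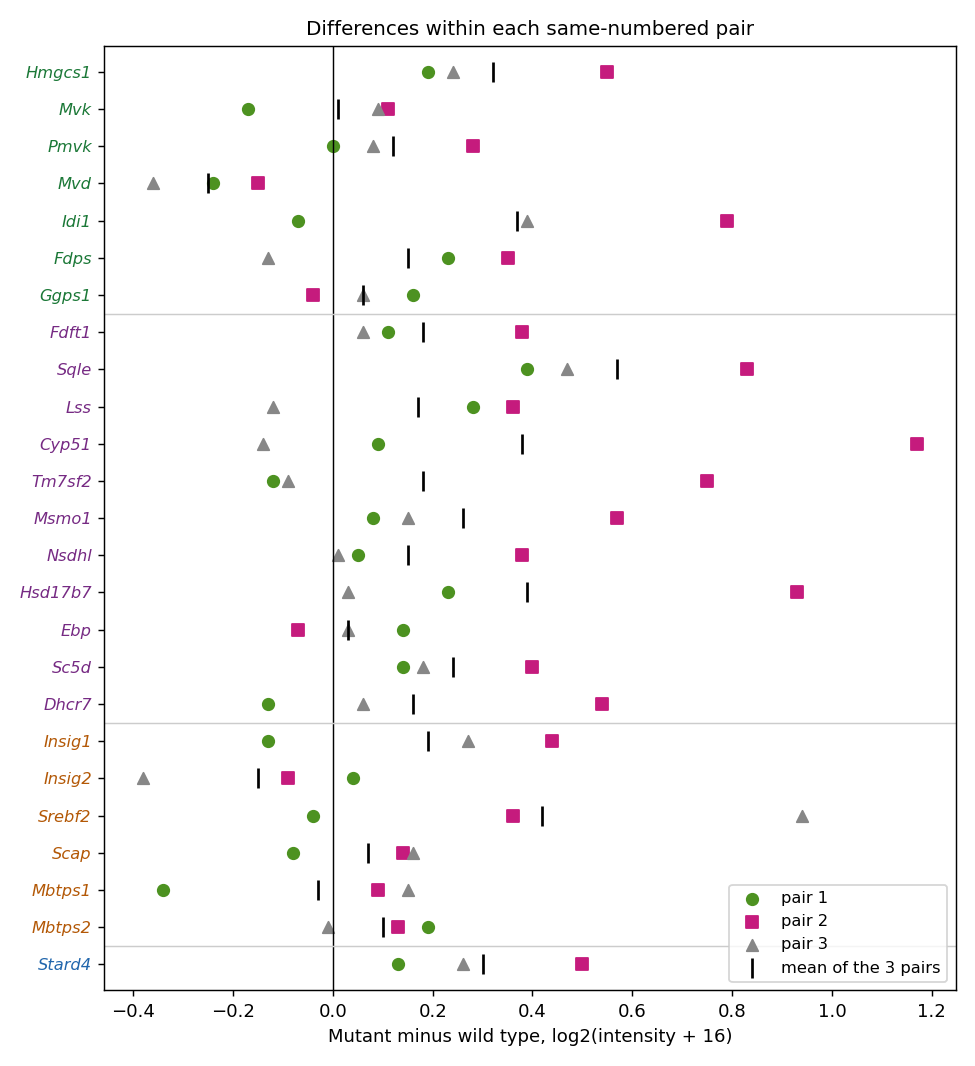
Mutant minus wild type on the log2(intensity + 16) scale for each of the 25 genes, with a symbol for each same-numbered pair and a black bar for the mean of the 3 pairs. Name colours mark the pathway stages. The pair 2 squares lie farthest to the right for 18 genes, up to 1.17 for Cyp51, and Mvd has all its symbols left of 0.

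Of the genes that control SREBP2, 4 of 6 had a higher mutant mean, and none of the 6 was higher or lower in every pair. Srebf2, which encodes SREBP2 and is also one of its targets, read 308, 403 and 113 in the mutant and 317, 311 and 51.5 in the wild type. The pair differences were -0.04, 0.36 and 0.94, the last being the largest difference of any of the 25 genes in pair 3. Its other probe set did not show it, at 0.19, 0.05 and -0.07. Scap, the escort of SREBP2, read 546, 571 and 328 against 578, 517 and 292, a difference of 0.07 ± 0.34 (SE). Insig1, a retention factor that SREBP2 itself turns on, read 268, 626 and 347 against 296, 456 and 285, with pair differences of -0.13, 0.44 and 0.27. Insig2, its paralog, is not driven by SREBP2 in the same way. It read 524, 572 and 432 against 509, 612 and 568, with a difference of -0.15 ± 0.14 and with 0.08 ± 0.16 and -0.21 ± 0.24 on its other probe sets. Mutant array 3 was the lowest of the 6 arrays on the first of these.

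The proteases had small mean differences on their brightest probe sets. Mbtps1, the site-1 protease, read 400.5, 559.6 and 368 in the mutant and 509.9, 525 and 331 in the wild type. Its difference was -0.03 ± 0.25 (SE), with pair values of -0.34, 0.09 and 0.15. Its other kept probe set differed by -0.22 ± 0.70, with pair values of -0.19, -0.54 and 0.07. Mbtps2, the site-2 protease, read 948, 958 and 939 against 830.0, 877 and 944, a difference of 0.10 ± 0.09. Wild-type array 3 lay among the mutant values there. Stard4, a carrier of cholesterol between membranes and a target of SREBP2, followed the enzymes, at 438, 419 and 135 against 399, 291 and 109.9. It was higher in each pair, by 0.13, 0.50 and 0.26. Of its other probe sets, one was also higher in each pair (0.50, 1.02 and 0.32) and the other was lower in pair 2 (0.27, -0.21 and 0.56).

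The pairs were unequal. The median difference of the 25 genes was 0.08 in pair 1, 0.38 in pair 2 and 0.06 in pair 3, where over all genes it was 0.00, 0.02 and 0.00. In pair 2 the mutant was at least 1.5-fold higher for 5 genes, Idi1, Sqle, Cyp51, Tm7sf2 and Hsd17b7, against 5.95% of all genes. Just under that bound were Msmo1 (1.48-fold), Hmgcs1 and Dhcr7 (1.46-fold each). In pair 1 the count was 0, against 3.21% of all genes, and in pair 3 it was 1, Srebf2, against 0.782%. None of the 25 was at least 1.5-fold lower in pair 1, 2 or 3, against 2.33%, 4.77% and 3.75% of all genes. For 18 of the 25 genes the difference was highest in pair 2, against 37.2% of all genes. Each pair is 1 array against 1 array, so whether the pairs differ was not tested.

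**Figure D3:**
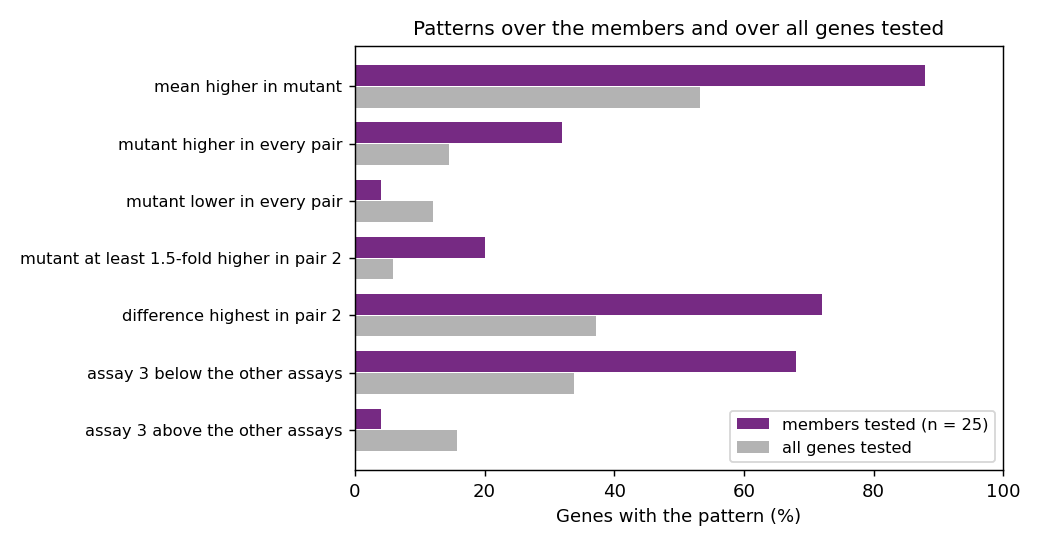
Percentage of the 25 genes (purple) and of all 10363 genes tested (grey) with each pattern named on the vertical axis. A mean higher in the mutant was seen in 88.0% of the 25 and 53.2% of all genes, and a level in assay 3 below the other assays in 68.0% and 33.8%.

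The assays differed more than the groups in these genes. For 17 of the 25, both arrays of assay 3 lay below all 4 arrays of assays 1 and 2, against 33.8% of all genes. The median gap of assay 3 to the mean of the others was -0.65 on the log2 scale for the 25 genes, where it was -0.09 over all genes. It was -2.39 for Sqle (5.24-fold), -1.97 for Idi1 (3.91-fold), -1.90 for Srebf2, -1.53 for Stard4, -1.47 for Fdft1 and -1.34 for Dhcr7. Genes with little gap were Mvk (-0.02), Mbtps2 (0.06), Insig2 (-0.15), Ebp (-0.16) and Sc5d (-0.19). The assay accounted for a median of 85.0% of the sum of squares of the 25 genes and the group for 4.93%, against 77.3% and 4.52% over all genes. The assay has 2 degrees of freedom and the group 1, so noise alone gives the assay the larger share. For Sc5d and Mbtps2 alone among the 25 the group took more than the assay, with 57.0% and 47.9%.

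**Figure D4:**
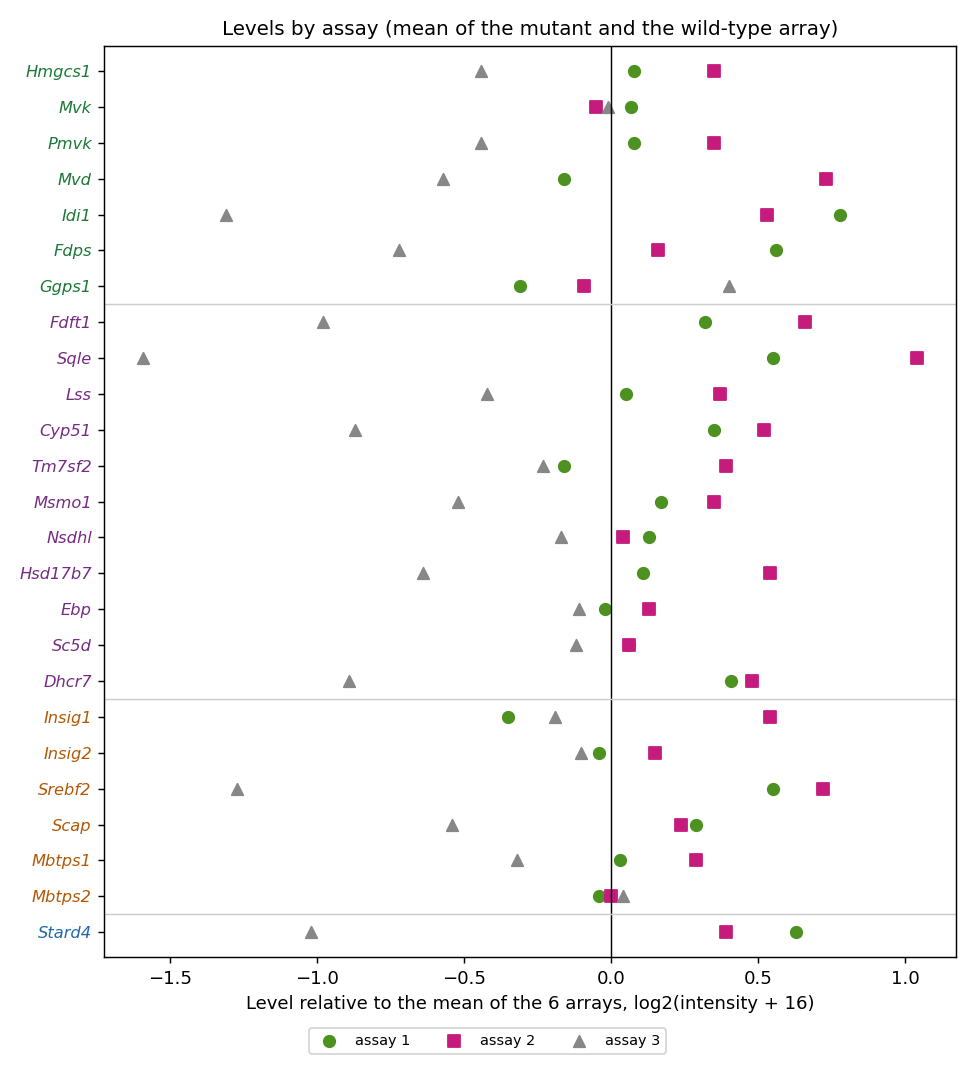
Level of each of the 25 genes in each assay, as the mean of its mutant and wild-type array relative to the mean of all 6 arrays, on the log2(intensity + 16) scale. The assay 3 triangles lie left of 0 for 23 genes, and to its right for Ggps1 and, slightly, Mbtps2.

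Markers of other cells moved with the assays and with the groups. Of the stromal markers, Sparc, Col1a1, Col1a2 and Col3a1 read 380.3 to 1719 on both arrays of assay 3 and at most 57.4 on the other arrays. Among the latter, mutant array 2 was above its wild-type partner, with Sparc at 57.4 and 17.3 and Col1a2 at 16.1 and 7.73. The 7 stromal probe sets summed to 54.7, 149 and 4331 on mutant arrays 1, 2 and 3 and to 53.0, 73.5 and 3187 on the wild-type arrays. Lum was near background on every array, and Dcn read 62.9 on wild-type array 3 and at most 4.67 elsewhere. All 4 stromal markers tested had a higher mutant mean and 3 were higher in every pair, against 53.2% and 14.5% of all genes. Most osteoclast markers differed between the groups, with 7 of the 8 tested lower in every pair, against 12.0% of all genes. The exception in the list was Nfatc1, at 775, 906 and 906 in the mutant and 817, 869 and 861 in the wild type. The 10 probe sets of that list summed to 1896 to 2789 in the mutant and 9406 to 27737 in the wild type, and Oscar and Itgb3 lay below the filter. The part of either in the values of the cholesterol genes was not tested. All 9 macrophage markers were bright, with sums of 185121 to 202666. None of the T cell or adipocyte markers passed the filter. Of the B cell list Ms4a1 did, at 9.17 to 11.7, and of the neutrophil list S100a8, at 128 to 677.

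Other genes tied to the pathway showed the same lack of passing calls, with 0 of 12 fatty acid genes, 0 of 11 isoprenoid-using genes, 0 of 8 genes of SREBP partners and degradation and 0 of 4 lysosomal genes passing in limma with or without a block. None of these had an unadjusted p under 0.05 without a block, and with the fixed block 2 (Acss2, Fads1), 1 (Rce1), 3 (Rnf145, Nfya, Nfyb) and 1 (Npc2) had, against 5.89% of all genes in either direction. Over all genes, 53.2% had a higher mean and the median difference was 0.01, beside which the counts of the 4 lists that follow stand. In the fatty acid branch, which SREBP factors also drive, 9 of 12 had a higher mean, with a median of 0.11. Acss2, which makes acetyl-CoA from acetate, was lower in every pair, at 64.9, 84.4 and 229.6 in the mutant and 163, 164 and 288 in the wild type (-0.77 ± 0.48, SE). Fads1, a fatty acid desaturase, was higher in every pair, at 1200.2, 1822 and 996 against 1097, 1347 and 741 (0.33 ± 0.32). Acly, which makes cytosolic acetyl-CoA from citrate, differed by 0.19 ± 0.24.

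Of the genes that use isoprenoids 8 of 11 had a higher mean, with a median of 0.05. Rce1, a protease that trims prenylated proteins, differed by 0.31 ± 0.15 (SE), Fntb, a subunit of farnesyltransferase that read at most 16.2, by 0.18 ± 0.15, and Rabggtb, of the Rab prenylating enzyme, by -0.15 ± 0.15. Among SREBP partners and degradation genes 4 of 8 were higher, with a median of -0.01. The NF-Y subunit genes Nfya (0.26 ± 0.35) and Nfyb (0.24 ± 0.26) were higher in every pair, and the ubiquitin ligase gene Rnf145 was lower in every pair (-0.25 ± 0.18). Of the lysosomal genes that release cholesterol 2 of 4 were higher, with a median of -0.04. Npc2, which hands cholesterol over inside the lysosome, read 14148, 14368 and 17552 in the mutant against 17001, 16985 and 21141, lower in every pair by -0.26, -0.24 and -0.27. Npc1, its partner in the membrane, differed by -0.10 ± 0.24 and Scarb2 by 0.02 ± 0.23.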

How the data were processed

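The file as deposited gives linear intensities, with 1 value for a probe set on each array. GCOS and GCRMA are the tools named in the submitters' processing notes, and versions and order are not given in the sources used here. GCRMA makes arrays alike in distribution and presses dim probe sets towards a floor. The 75th percentiles were 160.5 to 164 and the medians 8.86 to 9.38, and the number of arrays limits the precision.

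Groups and replicate numbers came from the titles. Of 45101 probe sets 64 controls were left out. Values were taken as log2(intensity + 16), and probe sets above their array's median (percentile 50) on 3 or more arrays were kept, 22497 in all. Groups were compared with limma 3.58.1 (lmFit, eBayes) in R 4.3.3 with no block in the model. The threshold was a Benjamini-Hochberg adjusted p of 0.05. SEs are limma's moderated ones, from the fit without a block unless a block is named. Without a block they hold the spread between assays, so they are not SEs of the paired differences. The steps were tested on simulated data.

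The labels describe 3 independent assays, and arrays with the same number deviated together from their group means (correlations of 0.797, 0.671 and 0.845, against -0.618 to -0.0138 for unlike numbers). Deviations within a group cancel, so positive correlations for same numbers make those for unlike numbers negative on balance. Correlations of the values themselves were 0.991, 0.982 and 0.991 for same numbers and 0.937 to 0.971 for unlike ones. The labels do not state that same-numbered arrays share an assay. This was inferred from the correlations, and same-numbered arrays were therefore treated as pairs. The genes and lists were chosen with earlier results of these data known. All 25 genes with a probe set are named, and of each related list the 3 with the smallest p. The 1.5-fold bound, the comparison of assay 3 with the others and the promoters printed were chosen after the values were seen. Alternatives were other pseudocounts (1, 64), filters (none, percentile 70), scalings, blocks, the mean of a gene's probe sets, and arrays or pairs left out.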

Additional observations from a re-analysis of the deposited data

How the results depend on the processing

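Under the 6 settings of pseudocount, filter or scaling, none of the 25 genes tested (21 with the filter at percentile 70) reversed direction. In these settings 0 passed limma's test, and the difference of Mvk was 0.00 with a pseudocount of 64. The fits with a replicate block changed no call of the 25 genes or of the related lists. The random replicate block called 1 probe set, none of the 25 genes, against 0 without the block. With the mean of a gene's probe sets Mvk turned to -0.01. The count lower in every pair was 0 with the filter at percentile 70, which drops Mvd, and 1 to 2 with a pair left out. The count higher in every pair was 10 to 16 with a pair left out, as fewer pairs must then agree. With arrays or pairs left out, the median difference of the 25 ranged from -0.02 to 0.36. Genes whose log2 difference changed sign when 1 array or 1 pair was left out had these ranges: Mvk -0.04 to 0.10, Pmvk -0.10 to 0.35, Mvd -0.64 to 0.09, Idi1 -0.29 to 1.02, Fdps -0.15 to 0.58, Ggps1 -0.14 to 0.26, Fdft1 -0.28 to 0.70, Sqle -0.21 to 1.39, Lss -0.06 to 0.46, Cyp51 -0.08 to 0.94, Tm7sf2 -0.16 to 0.36, Hsd17b7 -0.01 to 0.81, Ebp -0.02 to 0.12, Dhcr7 -0.26 to 0.63, Insig1 -0.14 to 0.45, Srebf2 -0.34 to 0.92, Scap -0.22 to 0.32, Mbtps1 -0.24 to 0.12 and Stard4 -0.20 to 0.82. Leaving out 1 array leaves the assays unequal between the groups. The value of the 25 genes nearest the array medians was that of Sqle on wild-type array 3 (15.5), and the difference of Sqle was 0.71 with a pseudocount of 1 and 0.40 with 64.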
